A study of Mus musculus with 8 samples.

Results

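In the CXC chemokine system 7 genes were followed across the 8 arrays of the series, namely the neutrophil-attracting ligands Cxcl1, Cxcl2, Cxcl3 and Cxcl5 with their receptor Cxcr2, and the ligand Cxcl12 with its receptor Cxcr4. They were chosen by gene symbol, 7 of 19938 genes with a probe set annotated to them alone, and each of the 7 has 1 such probe set. Tail tumors of 4 mice were sorted on the Fc receptors of myeloid cells and large granular lymphocytes into CD16/32HI and CD16/32LO cells, and 1 array was run for each fraction, which gives 2 arrays in each of 4 groups. The groups were tumors of the genotype IL-15-/- TAX+ LUC+ and of the control genotype IL-15+/+ TAX+ LUC+, each as a CD16/32HI and as a CD16/32LO fraction. Within each genotype the mouse of replicate 1, here mouse 1, was 14 months old, and the mouse of replicate 2, here mouse 2, was 12 months old. All animals, controls included, carried both transgenes, with the Tax oncogene of HTLV-1 under the human granzyme B promoter, which is active in cytotoxic lymphocytes, and luciferase under the viral long terminal repeat, on a mixed C57BL/6 and FVB background. In IL-15-/- mice a neomycin resistance cassette stands in place of part of Il15. The labels call CD16/32HI cells malignant large granular lymphocytes and CD16/32LO cells tumor infiltrating cells. Values are RMA signals on the log2 scale, in which a difference of 1 is a doubling, and signals of different probe sets are not compared with each other because probes differ in their response.

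CXC chemokines are small secreted proteins that direct leukocytes along a concentration gradient. Those with a glutamate-leucine-arginine stretch ahead of their first cysteines, the ELR+ group, bind CXCR2 on neutrophils, promote their movement out of the blood, and are made by macrophages, endothelium, epithelium and neutrophils themselves once NF-kB is activated. CXCL12 is made constitutively by stromal cells and retains neutrophils and their precursors in the bone marrow through CXCR4, so that CXCR2 and CXCR4 have opposing roles in neutrophil release. Tumors of TAX-LUC mice are known for a heavy neutrophil infiltrate, and the sorted populations allow the question of which cells carry the ligands and which the receptors.

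The ELR+ ligand genes lie in a row on mouse chromosome 5 together with Pf4, a ligand outside that group, in the RefSeq order Cxcl5, Ppbp, Pf4, Cxcl3, Cxcl15, Cxcl1 and Cxcl2. The 120 bases before the gene starts of Cxcl1, Cxcl2 and Cxcl3 are shown because Cxcl2 and Cxcl3 varied together over the arrays (Pearson r of 0.835, n = 8 arrays) and Cxcl1 did not vary with them (r of -0.0004 and 0.036). The latter values depend on IL-15-/- mouse 2. Over the 6 arrays without that mouse the r of Cxcl1 was -0.73 with Cxcl2 and -0.822 with Cxcl3, and Cxcl2 and Cxcl3 had an r of 0.922. The longest run of letters that the 3 stretches share, GGGAATTTCCC, is printed in capitals. It holds the letters of an NF-kB element. The stretches come from RefSeq (GRCm38.p6, plus strand) and lie at chr5:90891125-90891244, chr5:90903779-90903898 and chr5:90785981-90786100, and the run begins 71, 97 and 73 bases before the start of Cxcl1, Cxcl2 and Cxcl3.
Cxcl1: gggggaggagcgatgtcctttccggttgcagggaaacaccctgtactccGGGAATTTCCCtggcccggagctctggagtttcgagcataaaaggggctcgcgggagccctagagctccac
Cxcl2: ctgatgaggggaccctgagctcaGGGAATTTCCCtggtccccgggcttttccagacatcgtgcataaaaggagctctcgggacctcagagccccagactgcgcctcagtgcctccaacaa
Cxcl3: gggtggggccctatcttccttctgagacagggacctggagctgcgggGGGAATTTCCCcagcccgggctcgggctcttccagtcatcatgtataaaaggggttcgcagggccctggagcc
The run was taken from these stretches, so its presence in them is not a result. On either strand it occurs in 0.0426% of 32851 RefSeq promoter windows, which reach from 250 bases before to 50 bases after a gene start, and it was not found in those of Cxcl12, Cxcr2 and Cxcr4. A window was held for 6 of the 7 genes, all but Cxcl5. In a global alignment the stretches of Cxcl1 and Cxcl3 were identical at 63.9% of the aligned columns, and Cxcl2 matched Cxcl1 and Cxcl3 at 53.4% and 52.0%. The transcripts of these ligands are also close relatives, and whether probes of one gene take up RNA of another was not tested.

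The arrays have 3 properties that touch every result. The sorted populations of IL-15-/- mouse 1 ran against those of the other 3 mice. Of 10159 probe sets whose CD16/32HI minus CD16/32LO difference had the same sign in the other mice, 84.5% had the opposite sign in this mouse. Neutrophil markers (9 of 11 measured) averaged 7.99 to 8.19 in CD16/32HI and 9.95 to 10.47 in CD16/32LO arrays of the other mice, and 10.80 in CD16/32HI and 8.40 in CD16/32LO cells of this mouse. Macrophage markers (8 of 9 measured) averaged 10.48 to 11.13 in CD16/32HI and 8.97 to 9.16 in CD16/32LO arrays of the other mice, and 8.94 in CD16/32HI and 10.89 in CD16/32LO cells of this mouse. Labels were kept as deposited, and results are given with and without this mouse. The lymphocyte label of CD16/32HI cells was not borne out by the 7 markers of NK cells and large granular lymphocytes, which averaged 4.88 to 5.91 in CD16/32HI and 5.03 to 7.52 in CD16/32LO arrays. Among them the NK cell receptor gene Ncr1 was at 4.10 to 4.85 in CD16/32HI and 4.31 to 5.15 in CD16/32LO arrays, so the fractions are called by the names of the sort. Exactly equal values, probe set by probe set, occurred only among the 4 arrays of replicate 1, between the IL-15+/+ arrays of replicate 2, and between the IL-15-/- arrays of replicate 2, so the files appear to have been normalized in 3 sets, and genotype and set cannot be told apart in replicate 2. Xist of the inactive X chromosome was at least 5.44 higher in every IL-15-/- than in every IL-15+/+ array, so sex and genotype cannot be told apart. The Il15 probe set, whose probes also lie outside the part replaced in IL-15-/- mice, was at 6.31 and 5.22 in IL-15-/- and 5.40 and 5.18 in IL-15+/+ CD16/32HI arrays, and at 5.45 and 6.54 in IL-15-/- and 6.42 and 6.88 in IL-15+/+ CD16/32LO arrays, and thus does not check the genotype.

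Cxcr2, the receptor of the ELR+ ligands, separated the sorted populations more widely than any other member. In CD16/32HI cells its values (mouse 1, then mouse 2 throughout) were 12.62 and 9.16 with IL-15-/- and 9.86 and 8.43 with IL-15+/+. In CD16/32LO cells they were 9.93 and 12.53 with IL-15-/- and 12.43 and 12.21 with IL-15+/+. The 8 arrays thus fell into 4 with values of 12.21 to 12.62 and 4 with values of 8.43 to 9.93, and the high ones were the CD16/32LO arrays of 3 mice and that from CD16/32HI cells of IL-15-/- mouse 1. Within mice the CD16/32HI minus CD16/32LO difference was 2.69 and -3.37 in IL-15-/- and -2.57 and -3.78 in IL-15+/+ mice. Over all 4 mice it averaged -1.76 and was not called (SE 1.11, adjusted p = 0.92 from limma with mouse as a block), as 0 of the 7 members and 0.0% of 21789 probe sets were (257, or 1.18%, at an unadjusted p under 0.05). Without IL-15-/- mouse 1, Cxcr2 was lower in CD16/32HI cells (log2 -3.24, SE 0.215, adjusted p = 4.44e-05), where 7.62% of all probe sets were called lower and 6.67% higher. Cxcr2, Cxcr4 and Cxcl3, 3 of the 7 members, were called lower there and 0 higher. CD16/32HI cells were below CD16/32LO cells in each of these 3 mice for Cxcr2, Cxcr4 and Cxcl3, against 22.8% of all probe sets, and above them in 0 of the 7 genes, against 23.8%. For the contrast within IL-15+/+ mice 0 members passed (0.0% of probe sets, and 6.29% at an unadjusted p under 0.05) in the fit of all 4 mice, whose spread includes that between the opposed IL-15-/- mice, with Cxcr2 at -3.18 (95% interval -7.14 to 0.78). With either IL-15-/- mouse left out the same contrast called 2217 of 21789 probe sets. Among them were 3 members, all lower, Cxcr2 at the same -3.18 (adjusted p = 6.98e-05 from limma), Cxcl3 (log2 -1.81, adjusted p = 0.000246) and Cxcr4 (log2 -0.80, adjusted p = 0.0225). Those fits take their spread from the 2 IL-15+/+ mice and from limma's estimate over all probe sets, so these p-values rest on 2 mice. In the fit of all 4 mice 0 passed within IL-15-/- mice (0.0%, and 0.262% unadjusted). Members at an unadjusted p under 0.05 from limma in that fit were Cxcl2 within IL-15-/- mice (log2 1.08), whose labels join unlike fractions. Within IL-15+/+ mice they were Cxcl2 (log2 -0.62) and Cxcl5 (log2 0.55). Over the 8 arrays Cxcr2 followed Csf3r, the receptor of the neutrophil growth factor G-CSF, with a Pearson r of 0.963, and ran opposite to C1qa, a complement component of macrophages, with an r of -0.911. Fewer neutrophils and less Cxcr2 RNA per neutrophil cannot be told apart in sorted bulk RNA.

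**Figure D1:**
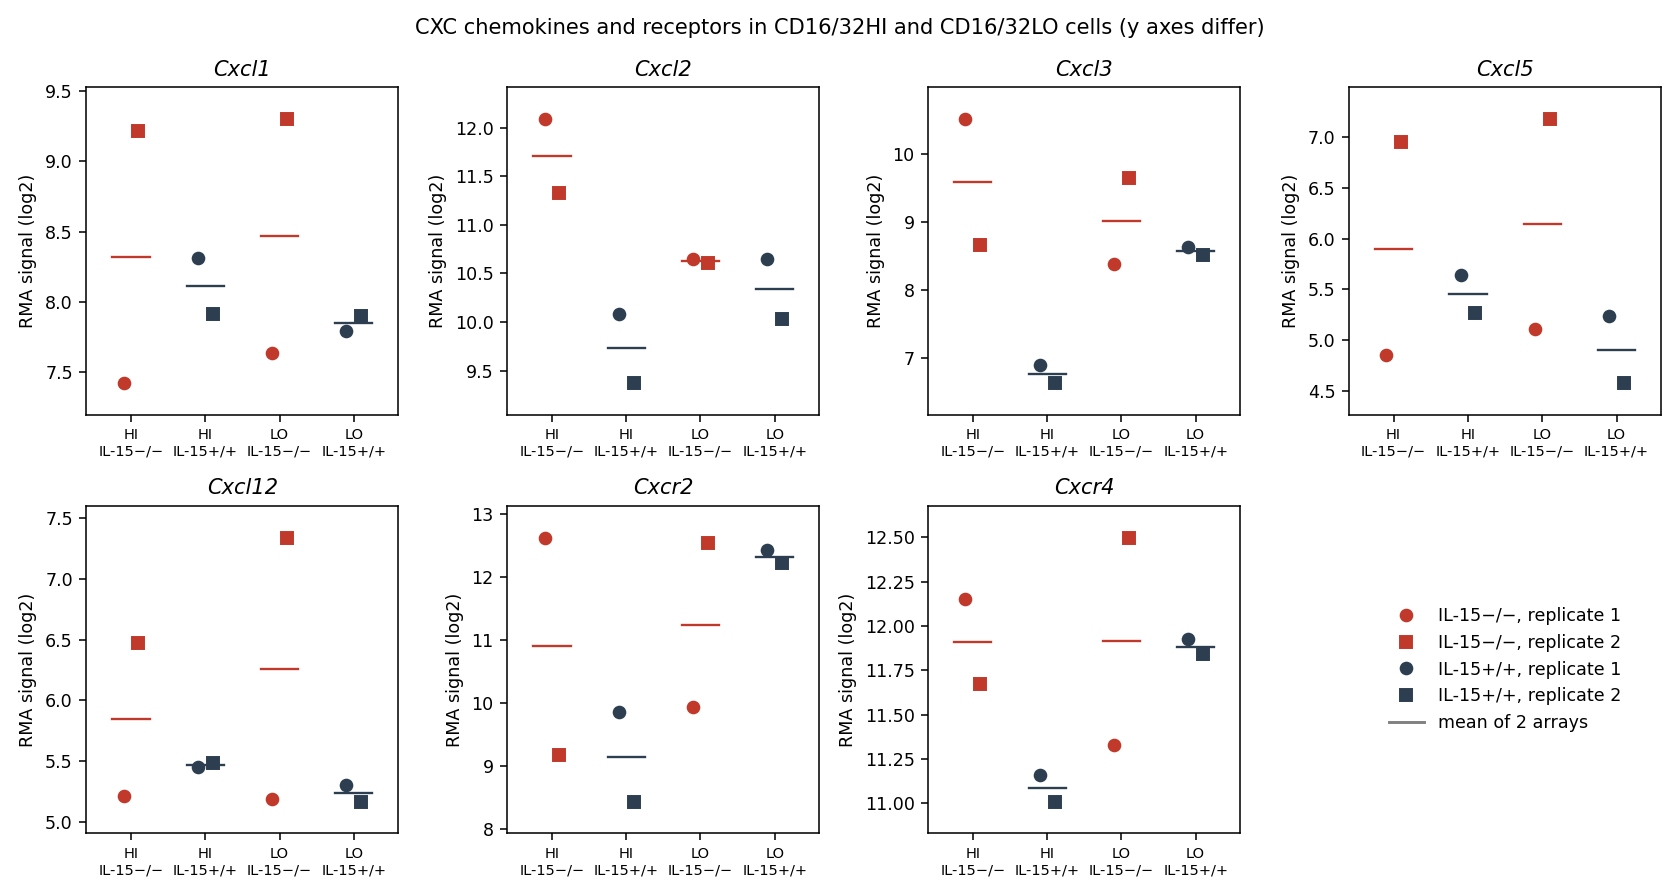
RMA signal (log2, y axis) of the 7 genes in each array, by sorted population and genotype (x axis), with mouse 1 as circles, mouse 2 as squares and the mean of 2 arrays as a line. Cxcr2 lies at 12.21 to 12.62 in 4 arrays and at 8.43 to 9.93 in the other 4, and Cxcl12 and Cxcl5 are highest in the 2 arrays of IL-15-/- mouse 2.

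Cxcr4, the receptor of Cxcl12, showed the same order within mice over a smaller range. In CD16/32HI cells it was at 12.15 and 11.67 with IL-15-/- and at 11.16 and 11.01 with IL-15+/+. In CD16/32LO cells it was at 11.33 and 12.50 with IL-15-/- and at 11.92 and 11.84 with IL-15+/+. The population difference was -0.83 in IL-15-/- mouse 2 and -0.77 and -0.83 in the IL-15+/+ mice, and 0.82 in IL-15-/- mouse 1. It was called without that mouse (log2 -0.81, SE 0.136, adjusted p = 0.00423 from limma) and not with all 4 mice (log2 -0.40, SE 0.316, adjusted p = 0.92). Cxcr2 and Cxcr4 had a Pearson r of 0.859 over the 8 arrays.

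Cxcl3, an ELR+ ligand, was also higher in CD16/32LO cells of 3 mice, the fraction with the higher Cxcr2. Its CD16/32HI values were 10.51 and 8.66 with IL-15-/- and 6.90 and 6.64 with IL-15+/+. Its CD16/32LO values were 8.39 and 9.65 with IL-15-/- and 8.63 and 8.52 with IL-15+/+. The highest array was the CD16/32HI array of IL-15-/- mouse 1, which also had the highest Cxcr2. Within mice the CD16/32HI minus CD16/32LO difference was 2.12 and -0.99 in IL-15-/- and -1.74 and -1.88 in IL-15+/+ mice. Without IL-15-/- mouse 1, Cxcl3 was called lower in CD16/32HI cells (log2 -1.53, SE 0.188, adjusted p = 0.000818 from limma), while with all 4 mice the difference was -0.62 (SE 0.694, adjusted p = 0.92).

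Cxcl2, the ELR+ ligand also known as MIP-2, departed from the direction of Cxcl3 and Cxcr2 in IL-15-/- mouse 2 only. In CD16/32HI cells it was at 12.09 and 11.33 with IL-15-/- and at 10.08 and 9.37 with IL-15+/+. In CD16/32LO cells it was at 10.65 and 10.60 with IL-15-/- and at 10.65 and 10.04 with IL-15+/+. By label, the CD16/32HI minus CD16/32LO difference was positive in both IL-15-/- mice (1.44 and 0.73). It was negative in both IL-15+/+ mice (-0.57 and -0.66). The label does not stand for the same cells in the 2 IL-15-/- mice, whose neutrophil markers ran in opposite directions. The fraction with the higher neutrophil markers had more Cxcl2 in IL-15-/- mouse 1 and both IL-15+/+ mice. That fraction had less Cxcl2 in IL-15-/- mouse 2 alone, although receptor levels there followed those of IL-15+/+ mice. The contrast given next follows the labels, so it joins unlike fractions of the IL-15-/- mice. The genotypes' population differences differed by 1.70 (SE 0.326, 95% interval 0.83 to 2.57), which did not pass over all probe sets (adjusted p = 0.878 from limma, unadjusted p = 0.00489), where 0.0% of all probe sets passed and 2.65% had an unadjusted p under 0.05.

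Cxcl1, Cxcl5 and Cxcl12 differed little between the sorted populations of a mouse. The within-mouse differences of Cxcl1, known as KC, ran from -0.21 to 0.52 and those of Cxcl5, known as LIX, from -0.26 to 0.69. For Cxcl12 they ran from -0.86, in IL-15-/- mouse 2, to 0.32. None was called with all 4 mice or without IL-15-/- mouse 1 (adjusted p = 0.38 to 0.941 from limma). The 95% intervals without that mouse were -0.22 to 0.51 for Cxcl1, -0.13 to 0.71 for Cxcl5 and -0.63 to 0.37 for Cxcl12. Outside IL-15-/- mouse 2, Cxcl5 and Cxcl12 lay below the median of each array, so their small differences there tell little.

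**Figure D2:**
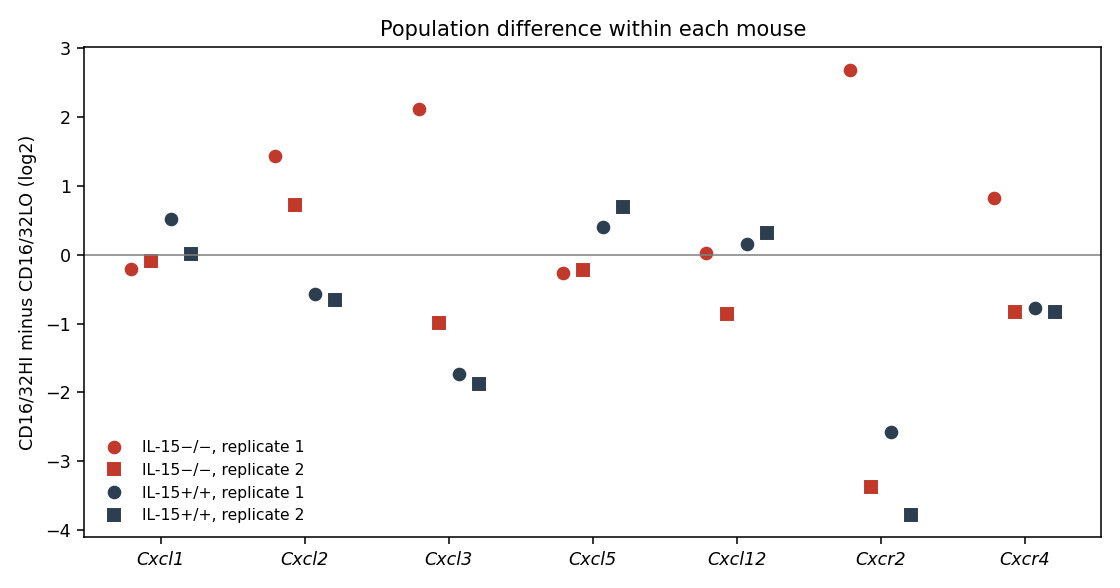
CD16/32HI minus CD16/32LO difference in RMA signal (log2, y axis) within each of the 4 mice, for the 7 genes (x axis), mouse 1 as circles and mouse 2 as squares. For Cxcr2 3 mice lie at -3.78 to -2.57 and IL-15-/- mouse 1 at 2.69, while for Cxcl2 both IL-15-/- mice lie above 0 and both IL-15+/+ mice below it.

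Between the genotypes, Cxcl3 and Cxcl2 had the largest differences of the 7 genes in CD16/32HI cells, and both IL-15-/- arrays exceeded both IL-15+/+ arrays. With the array values given above, the mean of Cxcl3 was 9.59 ± 1.31 with IL-15-/- and 6.77 ± 0.18 with IL-15+/+ (SD, n = 2 each), 7.05-fold higher (log2 2.82, SE 0.578, 95% interval 1.51 to 4.13, adjusted p = 0.854 from limma). The mean of Cxcl2 was 11.71 ± 0.54 with IL-15-/- and 9.73 ± 0.50 with IL-15+/+ (SD, n = 2 each), 3.95-fold higher (log2 1.98, SE 0.355, 95% interval 1.17 to 2.79, adjusted p = 0.776). Neither passed over all 21789 probe sets, nor did any member, and 5 probe sets (0.0229%) did. At an unadjusted p under 0.05 stood 2 members, Cxcl2 and Cxcl3, against 4.91% of all probe sets. Within replicate 1, whose arrays form 1 normalization set, the differences were 3.61 for Cxcl3 and 2.01 for Cxcl2, and within replicate 2 they were 2.02 and 1.96. Over 3-fold higher were 3 of the 7 genes, Cxcl3, Cxcl2 and Cxcr2, against 0.271% of all probe sets, and the arrays of the genotypes did not overlap in 3, Cxcl3, Cxcl2 and Cxcr4, against 24.1% of all with both IL-15-/- arrays above and 10.4% with both below. The members were chosen with earlier results of these data known, so these counts are not independent of them.

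Neutrophil markers did not move alike in the 2 IL-15-/- mice. In CD16/32HI cells they averaged 10.80 in mouse 1 and 7.99 in mouse 2, against 8.19 and 8.11 in IL-15+/+ mice. In mouse 2 Cxcl2 was 1.25 above the higher IL-15+/+ array and Cxcl3 1.76 above it. Macrophage markers in CD16/32HI cells averaged 8.94 and 11.13 with IL-15-/- and 10.83 and 10.48 with IL-15+/+, and the part of either marker list in the ligand levels was not tested. With mouse 1 left out, the differences in CD16/32HI cells were 1.89 for Cxcl3 (SE 0.318, adjusted p = 0.172 from limma) and 1.60 for Cxcl2 (SE 0.4, adjusted p = 0.658), resting on 1 IL-15-/- mouse, with 0 members passing where 0.0229% of probe sets were called higher and 0.0184% lower. The difference of Cxcr2 (log2 1.75, SE 1.11, adjusted p = 0.854) was 0.02 without it, and within replicates it was 2.76 and 0.74. Cxcr4 had a difference of 0.83 (SE 0.368, adjusted p = 0.854), and 0.59 without that mouse.

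Cxcl1, Cxcl5 and Cxcl12 had no common direction between the genotypes in CD16/32HI cells. Within replicate 1 the differences were -0.89 for Cxcl1, -0.79 for Cxcl5 and -0.23 for Cxcl12, and within replicate 2 they were 1.69 for Cxcl5 and 0.99 for Cxcl12, with Cxcl1 at 9.21 against 7.91. The means differed by 0.21 for Cxcl1, 0.45 for Cxcl5 and 0.38 for Cxcl12, all with intervals that included 0 (adjusted p = 0.939 to 0.969 from limma), beside a median of 0.09 over all probe sets. Without IL-15-/- mouse 1 the differences were 1.10 for Cxcl1, 1.51 for Cxcl5 and 1.01 for Cxcl12, beside a median of 0.12. These rest on 1 IL-15-/- mouse.

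In CD16/32LO cells 0 of the 7 genes passed between the genotypes (8 probe sets, 0.0367%, did, and 417, or 1.91%, had an unadjusted p under 0.05). No member was over 3-fold changed, against 0.129% of all probe sets higher and 0.239% lower, and in none did the arrays of the genotypes lie apart, against 24.2% with both IL-15-/- arrays above and 4.7% with both below. The mean difference was 1.24 for Cxcl5 (SE 0.759), 1.03 for Cxcl12 (SE 0.632) and 0.62 for Cxcl1 (SE 0.628), beside a median of 0.13 over all probe sets. It was 0.44 for Cxcl3, 0.28 for Cxcl2, 0.03 for Cxcr4 and -1.09 for Cxcr2. Replicates went apart, with Cxcr2 at -2.50 within replicate 1 and 0.32 within replicate 2.

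**Figure D3:**
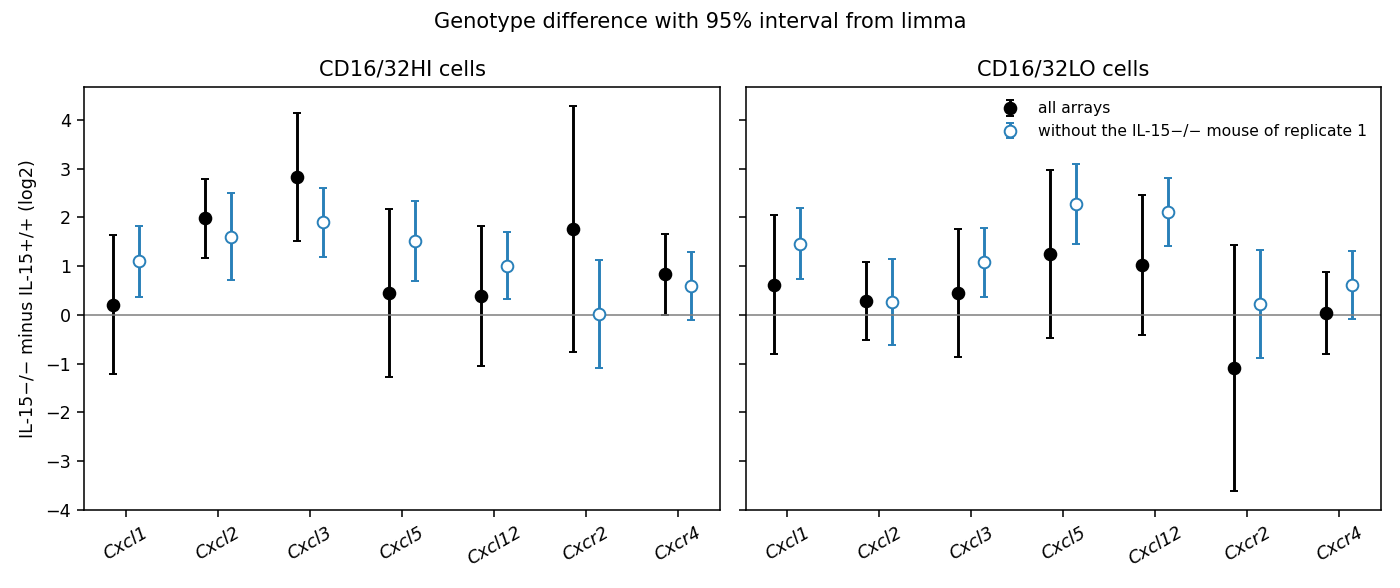
IL-15-/- minus IL-15+/+ difference in RMA signal (log2, y axis) of the 7 genes (x axis) in CD16/32HI (left) and CD16/32LO cells (right), with 95% intervals from limma, for all arrays (filled) and without IL-15-/- mouse 1 (open). The CD16/32HI intervals of Cxcl3 and Cxcl2 lie above 0 in both settings, although neither gene passed over all probe sets, and the point of Cxcr2 moves to 0.02 without that mouse.

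Cxcl12, Cxcl5 and Cxcl1 were highest in IL-15-/- mouse 2, in both sorted populations. Cxcl12 was at 6.47 in CD16/32HI and 7.34 in CD16/32LO cells of this mouse and at 5.17 to 5.49 in the other 6 arrays. Cxcl5 was at 6.96 and 7.18 in this mouse and at 4.58 to 5.64 in the others. In each of those other arrays Cxcl5 and Cxcl12 lay below the array median (5.62 to 5.93), so neither was shown to be above background there. Cxcl1 was at 9.21 and 9.30 in this mouse and at 7.42 to 8.31 in the others. In 3 of the 7 genes both arrays of this mouse thus lay above all others, by at least 0.99, 1.32 and 0.90, which was so in 10.8% of all probe sets. The 3 genes correlated with each other over the 8 arrays (Pearson r of 0.925 to 0.953), and over the 6 arrays other than those of this mouse the r was 0.6 for Cxcl1 and Cxcl5, 0.65 for Cxcl1 and Cxcl12 and 0.795 for Cxcl5 and Cxcl12.

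Of the fibroblast markers, decorin (Dcn), a matrix proteoglycan, had its highest values in the same arrays as these ligands. Dcn was at 9.25 and 10.45 in IL-15-/- mouse 2 and at 5.06 to 6.51 in the other 6 arrays, with a Pearson r of 0.943 with Cxcl12, 0.907 with Cxcl5 and 0.896 with Cxcl1. The collagen gene Col1a1 was at 6.39 and 6.56 in this mouse and 6.20 to 6.79 in the others, and of the 6 fibroblast markers other than Dcn only the growth factor receptor gene Pdgfra, at 5.42 and 5.59 in this mouse and 4.25 to 5.39 in the others, was above all other arrays. Over all 7 fibroblast markers the average was 5.96 and 6.19 in this mouse and 5.11 to 5.72 in the others, and their part in the ligand levels was not tested. In the absence of IL-15-/- mouse 1, Cxcl12 was called higher in IL-15-/- CD16/32LO cells (log2 2.11, SE 0.311, adjusted p = 0.0395 from limma, where 0.078% of probe sets were called higher and 0.0413% lower), as was Dcn (log2 4.18, adjusted p = 0.00181), and Cxcl5 was not (log2 2.28, SE 0.37, adjusted p = 0.0711). The call rests on 1 IL-15-/- mouse whose normalization set held no IL-15+/+ array. With 1 IL-15-/- array in each population, the SE measures no spread between IL-15-/- mice. Leaving out only the CD16/32LO array of IL-15-/- mouse 1 gave the same difference of 2.11, and Cxcl12 was not called. The call also rests on IL-15+/+ values of 5.30 and 5.17, below the medians of their arrays (5.93 and 5.65). Cxcl12 was thus not shown to be above background there, and the size of the difference is uncertain. Over the alternatives the adjusted p of Cxcl12 in this comparison ran from 0.0395 to 1, and its difference was -0.05 without IL-15-/- mouse 2.

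**Figure D4:**
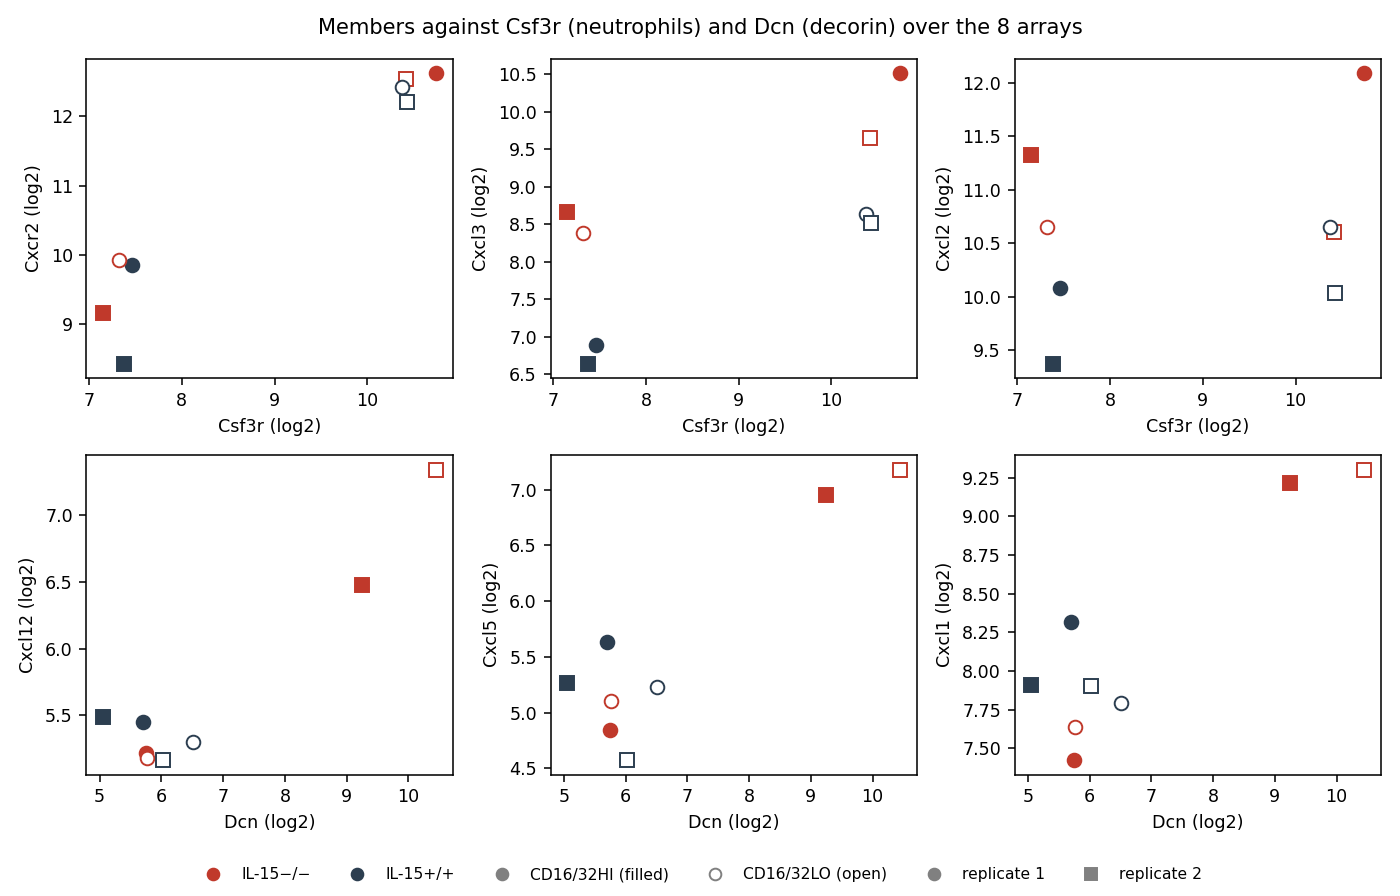
Signals (log2) of Cxcr2, Cxcl3 and Cxcl2 against the neutrophil gene Csf3r (upper row) and of Cxcl12, Cxcl5 and Cxcl1 against Dcn (lower row) in the 8 arrays, filled for CD16/32HI and open for CD16/32LO, mouse 1 as circles and mouse 2 as squares. Cxcr2 follows Csf3r (r of 0.963), Cxcl2 does not separate with it (r of 0.327), and the highest points of the lower row are the 2 arrays of IL-15-/- mouse 2.

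The rest of the CXC family had its own patterns, also among neighbours on chromosome 5. None of the 18 other ligands and receptors passed in any comparison with all 8 arrays. With IL-15-/- mouse 1 left out, 4 of 9 ligands outside the ELR+ group were called higher in CD16/32HI cells, and 1 lower, where 6.67% of all probe sets were called higher and 7.62% lower. Pf4, the platelet factor gene that lies between Ppbp and Cxcl3, was higher by 2.75 (adjusted p = 2.04e-05 from limma), and Cxcl16, the ligand of CXCR6, by 2.11 (adjusted p = 0.000146). Cxcl9 and Cxcl10, interferon-induced ligands of CXCR3, were higher by 1.63 and 0.79 (adjusted p = 0.00703 and 0.0271), and Cxcl14 fell by 0.88 (adjusted p = 0.00973). Of the 6 ELR+ ligands 1 was called higher, Ppbp (log2 2.13, adjusted p = 0.000874), and 1 lower, Cxcl3. Of 10 receptors 4 were lower in CD16/32HI cells, against 7.62% of all probe sets, and 0 higher, against 6.67%. Beside Cxcr2 and Cxcr4 these were Cxcr6, a receptor of effector lymphocytes (log2 -1.20, adjusted p = 0.00295), and Cxcr1 (log2 -0.54, adjusted p = 0.0472).

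Between the genotypes no CXC gene other than Cxcl12 passed in either setting. The median difference of the 6 ELR+ ligands in IL-15-/- against IL-15+/+ tumors was 0.49 in CD16/32HI and 0.53 in CD16/32LO cells, beside 0.09 and 0.13 over all probe sets, and 1.55 and 0.97 without IL-15-/- mouse 1, beside 0.12 and 0.14. With all arrays, the largest differences outside the members were those of Cxcl9, at 5.02 and 7.20 with IL-15-/- against 9.27 and 6.94 with IL-15+/+, and Cxcl16 (log2 -1.11) in CD16/32HI cells and those of Pf4 (log2 2.04) and Ppbp (log2 1.95) in CD16/32LO cells. Without IL-15-/- mouse 1 these differences were -0.91 for Cxcl9 and 0.51 for Cxcl16, and 0.77 for Pf4 and 0.87 for Ppbp. Cxcl13, the ligand of CXCR5 that attracts B cells, was high in the mouse with high Cxcl12, at 9.93 and 10.91 against 6.32 to 8.56 in the other 6 arrays.

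**Figure D5:**
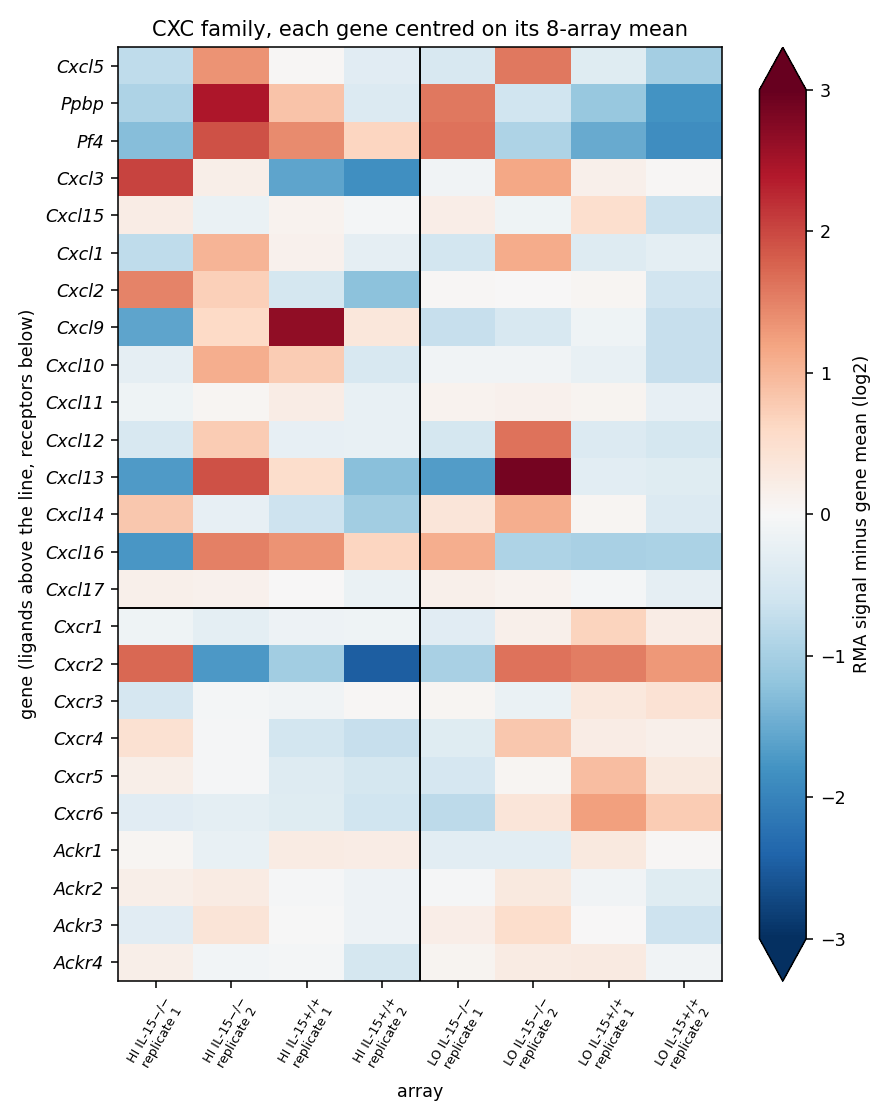
RMA signal of 25 CXC ligands and receptors (rows, the first 7 in their order on chromosome 5) in the 8 arrays (columns), each gene centred on its mean over the arrays (colour, log2). Cxcr2 and Pf4 have opposite colours in 8 of 8 arrays, and Cxcl5, Cxcl1, Cxcl12 and Cxcl13 are highest in the columns of IL-15-/- mouse 2.

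Genes that carry the receptor signal were compared in the same way. Of 26 measured genes for G proteins, receptor kinases, arrestins and motility enzymes downstream of CXCR2 and CXCR4, 0 passed with all arrays. When IL-15-/- mouse 1 was left out, 5 were lower in CD16/32HI cells and 1 higher, beside 7.62% of all probe sets lower and 6.67% higher, with a median of -0.31 beside 0.03 over all probe sets. Lower were Rac2, the GTPase of leukocyte motility (log2 -1.51, adjusted p = 0.000264 from limma), the kinase gene Fgr (log2 -1.51), Rgs2, Pik3r5 and the arrestin gene Arrb2 (log2 -0.55, adjusted p = 0.0292), and higher was the receptor kinase gene Grk3 (log2 1.28, adjusted p = 0.00149). By the same calls, with the same shares of all probe sets (7.62% lower, 6.67% higher), 3 of 7 other chemoattractant receptors were lower, Ccrl2, Ptafr and Ltb4r1, and 2 higher, Ccr2 of monocytes (log2 2.18) and the complement receptor C3ar1 (log2 1.81). Of the 11 measured genes of neutrophil retention and release, beside these shares, 5 were lower, namely Cxcr2, Cxcr4, Csf3r (log2 -3.07, adjusted p = 1.48e-05), the protease gene Mmp9 (log2 -2.90) and the integrin gene Itga4 (log2 -1.14), and 1 was higher, Vcam1, whose product binds that integrin (log2 1.88). Between the genotypes 0 of these genes other than Cxcl12 passed in either setting. The largest differences of each list in CD16/32HI cells were 1.24 for Fgr, 1.86 for Ccrl2, a receptor that binds chemerin, and 2.81 for Mmp9 (adjusted p = 0.854 each from limma). Without IL-15-/- mouse 1 these differences were 0.45 for Fgr, 1.19 for Ccrl2 and 1.87 for Mmp9.

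Genes that control the induction of the ELR+ ligands were compared last, namely cytokines, receptors, NF-kB factors and Zfp36, whose product destabilizes cytokine mRNAs. In the fit without IL-15-/- mouse 1, 5 of 13 were lower in CD16/32HI cells, with Il1a (log2 -2.14, adjusted p = 0.00114 from limma), Il1b, Il17ra, Rela and Myd88, and 1 was higher, Tlr2 (log2 0.96), beside 7.62% of all probe sets lower and 6.67% higher. In CD16/32HI cells 12 of these 13 genes, Zfp36 (log2 0.53) among them, had a positive IL-15-/- minus IL-15+/+ difference, with a median of 0.57 beside 0.09 over all probe sets, and 0 passed. The count was 12 without IL-15-/- mouse 1, and the median 0.55 beside 0.12. The largest differences were those of Il1a (log2 2.84) and Nfkbiz, a nuclear cofactor of NF-kB (log2 1.53), both with adjusted p = 0.854 from limma. In CD16/32LO cells 6 of 13 were positive, with a median of -0.01 beside 0.13.

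The genes most like each member were those with the highest Pearson r over the 8 arrays among 2299 probe sets with an SD of at least 0.5, given as a description. They were Rac2, Ccdc146 and Hmces for Cxcr2 (0.991 to 0.992) and Ergic2, Dennd4a and the myeloid lectin gene Clec5a for Cxcr4 (0.992 each). For Cxcl3 they were Nlrp3 of the inflammasome (0.993), Cd300ld (0.978) and the chemokine gene Ccl3 (0.973), and for Cxcl2 AI837181 (0.935), Nfkbiz (0.897) and Vegfa (0.895). The complement factor gene Cfb led for both Cxcl1 (0.98) and Cxcl5 (0.989), followed by Timp1 and Cxcl13 for Cxcl1 and Pglyrp3 and Sparc for Cxcl5. For Cxcl12 they were the complement gene C1s1 (0.981), U90926 (0.975) and the receptor gene Osmr (0.97).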

How the data were processed

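RNA of sorted CD16/32HI and CD16/32LO cells was measured on Affymetrix Gene Chip Whole Transcript 1.0ST arrays. Per probe set the authors deposited a log2 signal, obtained with Affymetrix Expression Console and RMA (background correction, normalization and summarization), and versions and genome build were not given in the sources used here. Of 35557 probe sets, 23410 had a gene symbol in the platform annotation, and the 21789 with 1 symbol were tested. Fits used limma 3.58.1 in R 4.3.3 on all 8 arrays, without further normalization or a filter, and p-values were adjusted after Benjamini and Hochberg over all tested probe sets and called under 0.05. Populations were compared with mouse as a block, since both populations of a mouse came from the same tumor, and genotypes within each population over 4 groups. A 3-fold difference of means, the filter of the methods, was a second rule. The genes named are all 7 members, the listed genes that passed or had the largest differences, and the 3 genes most like each member. The members and lists were chosen with earlier results of these data known. The fits were tested on simulated data with large planted changes, less spread than these arrays and no mouse or set effects. That test checks the direction and size of the fitted differences and does not show what the fits can find here. The number of arrays limits the precision, and a fold change is 2 to the power of a mean log2 difference. Listed genes with no probe set annotated to them alone were not analysed here. Alternatives covered array scaling, dim probe sets, the features tested, the spread estimate, blocks, and leaving out arrays or mice.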

Additional observations from a re-analysis of the deposited data

Results flagged for a closer look

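In 3 genes CD16/32HI cells differed from CD16/32LO cells in 1 direction in both IL-15-/- mice and in the opposite direction in both IL-15+/+ mice. The share of all probe sets with this pattern was not counted, so an excess among the members is not shown. For Cxcl1 the direction in IL-15+/+ mouse 2 rests on a difference of 0.01. The difference between the genotypes was 1.70 for Cxcl2, -0.79 for Cxcl5 and -0.41 for Cxcl1 on the log2 scale (adjusted p = 0.878 each from limma within mice). The Cxcl2 differences within mice were 1.44 and 0.73 in IL-15-/- and -0.57 and -0.66 in IL-15+/+ mice. Those of Cxcl5 were -0.26 and -0.22 in IL-15-/- and 0.40 and 0.69 in IL-15+/+ mice, and those of Cxcl1 were -0.21 and -0.09 in IL-15-/- and 0.52 and 0.01 in IL-15+/+ mice. These directions follow the labels. Neutrophil markers were higher in the CD16/32HI fraction of IL-15-/- mouse 1 (10.80 against 8.40). In IL-15-/- mouse 2 they were higher in the CD16/32LO fraction (10.41 against 7.99), as in both IL-15+/+ mice. From the fraction with fewer to that with more neutrophil signal, each gene moved in IL-15-/- mouse 1 as in both IL-15+/+ mice. Only IL-15-/- mouse 2 went the other way. A shared order of the IL-15-/- mice is thus not shown, and the part of cell content was not tested.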

How the results depend on the processing

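Leaving out an IL-15-/- mouse or 1 of its arrays changed calls, and no alternative in scaling, probe selection or the spread estimate did. Of 730 values of single members under the alternatives, 621 kept direction and side of the threshold, 56 changed sign and 53 came to pass with the sign kept. Of those that changed sign 3 passed, so 56 passed in all. With all arrays 0 members passed in each of the 6 comparisons. Without IL-15-/- mouse 1, 3 members passed between the populations of all mice, where 3114 of 21789 probe sets were called, and 3 in IL-15+/+ mice, where 2217 were. Leaving out IL-15-/- mouse 2, an alternative added after the data were seen, gave the same calls in IL-15+/+ mice. Either setting leaves 1 IL-15-/- mouse for the comparisons within IL-15-/- mice, between genotypes and of genotype changes. Calls that arose there rest on that mouse and are not listed here by gene. Without mouse 2 it is mouse 1, whose fractions run against their labels. The member counts of such calls given below include no spread between IL-15-/- mice. Within IL-15-/- mice and for genotype changes they stand without the share of all probe sets. An excess of members therefore cannot be read from them. The difference within IL-15+/+ mice was the same whichever IL-15-/- mouse was left out. A 3-fold rule gave 3 members in CD16/32HI cells. When single arrays or mice were left out, the members called ranged from 0 to 3 between the populations of all mice, in IL-15+/+ mice and in IL-15-/- mice, from 0 to 3 between genotypes in CD16/32HI cells, from 0 to 1 in CD16/32LO cells and from 0 to 4 in the difference. All probe sets called went from 0 to 3114 between populations without IL-15-/- mouse 1, and between genotypes without IL-15-/- mouse 2 from 5 to 515 in CD16/32HI and from 8 to 314 in CD16/32LO cells.

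Cxcr4 was at 0.024 between populations of IL-15-/- mice with arrays centred on their median, and in CD16/32LO cells between genotypes at -0.088 with centring and -0.090 with quantile normalization, which gave -0.056 for Cxcl1 in CD16/32HI cells. With the normalization set as a fixed term, the genotype difference was -0.73 for Cxcl1, -0.85 for Cxcl5 and -0.50 for Cxcl12 in CD16/32HI cells, and -0.32 for Cxcl1, -0.063 for Cxcl5 and -0.20 for Cxcr4 in CD16/32LO cells. Each set of replicate 2 holds a single genotype, so that fit takes the genotype difference from replicate 1. Replicate 2 adds only its population differences. In replicate 1 the IL-15-/- mouse is the one whose fractions run against their labels. These sign changes therefore cannot be read as an effect of normalization. Leaving out arrays or mice gave ranges that crossed 0. Between populations of all mice they were -0.10 to 0.15 for Cxcl1, -0.17 to 0.53 for Cxcl2, -0.027 to 0.29 for Cxcl5 and -0.23 to 0.17 for Cxcl12. In IL-15-/- mice they were -0.99 to 2.12 for Cxcl3, -3.37 to 2.69 for Cxcr2, -0.83 to 0.82 for Cxcr4 and -0.86 to 0.032 for Cxcl12. Between genotypes in CD16/32HI cells they were -0.69 to 1.10 for Cxcl1, -0.60 to 1.51 for Cxcl5 and -0.25 to 1.01 for Cxcl12. In CD16/32LO cells they were -0.21 to 1.45 for Cxcl1, -0.028 to 0.59 for Cxcl2, -0.19 to 1.08 for Cxcl3, -2.39 to 0.21 for Cxcr2, -0.55 to 0.62 for Cxcr4 and -0.049 to 2.11 for Cxcl12. The difference of genotype changes ran from -0.19 to 5.87 for Cxcr2 and -0.029 to 1.62 for Cxcr4. Cxcl2 and Cxcl3 in CD16/32HI cells stayed above 0, at 1.60 to 2.36 and 1.89 to 3.74. The cause was not tested.

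Between genotypes the replicate 1 minus replicate 2 deviations correlated at 0.06 in CD16/32HI and 0.13 in CD16/32LO arrays. In IL-15-/- mice the deviations of the populations ran opposite (r of -0.458), and replicate number goes with age. These values therefore do not decide whether replicate number has a shared effect. The replicate block gave 0 members called in either population and changed no member's sign. Without dim probe sets Cxcl5 and Cxcl12 were not tested. With 2 mice a genotype the precision is limited, and the methods' own test called 0 probe sets after adjustment.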
